A study of Mus musculus with 2 samples.

Results

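Hsd11b1, Hsd11b2 and H6pd are the genes of the enzymes that interconvert active and inactive glucocorticoid and of the enzyme that feeds that reaction with NADPH. They were chosen by gene name in the quantification of both libraries, and are 3 of 18168 annotated mouse genes with at least 1 read in either library. They account for 31 of 140263 transcript models in replicate 2 and for 21 of 104489 in replicate 1. The tissue was adrenal gland from B6CASTF1/J males at 25 days of age, a cross of C57BL/6 with CAST/EiJ, sequenced as long RNA reads in 2 libraries. Both libraries belong to 1 group, as replicates 2 and 1, with no treatment named, so the only comparison is between libraries. An RNA input is stated for replicate 2 alone (1 µg). The library descriptions name 1 animal, the tissue descriptions name different animals, and the donor record is shared, so a difference between them may be technical. The p-values from read counts cover counting error only and hold no estimate of the spread between animals.

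The product of Hsd11b1 is a reductase in the lumen of the endoplasmic reticulum that turns inactive 11-dehydrocorticosterone back into corticosterone, the main glucocorticoid of mice. It needs NADPH, which the product of H6pd, hexose-6-phosphate dehydrogenase, makes inside the same compartment from glucose 6-phosphate. The product of Hsd11b2 runs the opposite way with NAD and inactivates glucocorticoid, which keeps the mineralocorticoid receptor of kidney collecting duct free for aldosterone. Liver and fat are known as strong sites of Hsd11b1 expression. In mouse and human the gene is known to be transcribed from a proximal promoter, used in liver, and from a distal one far upstream.

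Hsd11b1 (ENSMUSG00000016194.14) lies on the minus strand of chromosome 1 at chr1:193221634-193264075 (mm10, GENCODE M21). Its transcripts Hsd11b1-201 and Hsd11b1-205 have different first exons but share the start codon at chr1:193242260-193242262 and a coding length of 876 bases. Hsd11b1-203 begins in the intron before the next exon and runs on into that exon, and its annotated start codon lies 30 codons downstream. The coding sequence from the shared start codon through the start codon of Hsd11b1-203 is shown to set the 2 coding starts apart. It spans chr1:193241458-193242262, is read from the GENCODE transcripts, is the same in Hsd11b1-201 and Hsd11b1-205, and has both start codons in capitals.
Hsd11b1-201: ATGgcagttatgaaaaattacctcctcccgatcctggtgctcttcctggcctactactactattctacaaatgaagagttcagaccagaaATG
The first exon of Hsd11b1-201, chr1:193242175-193242629, covers the RefSeq promoter window of the gene, which RefSeq (GRCm38.p6) places around a start at 193242360. That window holds 1 match to the letters CCAAT, searched on both strands, on the gene's own strand and starting 72 bases before the RefSeq start. The surrounding 30 bases at chr1:193242415-193242444 have the match in capitals.
Hsd11b1: tcccacccaaagCCAATcgttgctctgaca
Of 32851 RefSeq promoter windows of this length, 12289 (37.4%) hold the same letters on either strand, and the match is a description of the sequence only.

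H6pd (ENSMUSG00000028980.14) lies on the minus strand of chromosome 4 at chr4:149979475-150009023. H6pd-201 and H6pd-202 share every exon but the first. The H6pd-201 start codon lies in its own first exon, at chr4:150008753-150008755, and its reading frame is 24 bases (8 codons) longer than that of H6pd-202, which starts in the shared second exon at chr4:149996360-149996362. The lines below show how the choice of first exon changes the start of the protein. Each gives the 27 transcript bases up to and including the start codon of H6pd-202, on the minus strand, with start codons in capitals.
H6pd-201: ATGaagcacacaggcatttggaagATG
H6pd-202: cactggcacacaggcatttggaagATG
The last 22 bases are the same, and the first 5 come from each transcript's own first exon. The RefSeq window of H6pd, around a start at 150003236, also holds 1 match to CCAAT, which begins 206 bases before that start. RefSeq had a window for 2 of the 3 genes, and Hsd11b2 (ENSMUSG00000031891.6, chr8:105518755-105523988, plus strand) was named only.

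Replicate 2 held 1290342 reads, 1210671 of them assigned to annotated mouse genes, and replicate 1 held 793999, with 752432 so assigned. Levels are counts per 1000000 of those gene reads (CPM). Each long read was counted once whatever the transcript length. The limit that a count of 0 allows, 3 reads, equals 2.48 CPM (replicate 2) or 3.99 CPM (replicate 1). The libraries stood apart in transcripts of other tissues. All 10 genes of a liver list were detected in replicate 2, with a summed level of 52012 CPM, and 2 of 10 in replicate 1, at 5.32 CPM. A skeletal muscle list of 10 genes had 0.826 CPM in replicate 2, with 9 genes at 0, and 4133 CPM in replicate 1, with all 10 detected. Adrenal cortex genes (8 of 8) summed to 25287 and 62076 CPM and adrenal medulla genes (8 of 8) to 7157 and 9526 CPM, so the labelled gland was present in both. In bulk tissue, fewer cells of a type and less RNA per cell cannot be told apart.

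Hsd11b1 was the most abundant of the 3 genes in both libraries. It had 592 reads in replicate 2 and 102 in replicate 1, or 489.0 CPM (95% interval 450.4 to 530.0) and 135.6 CPM (110.5 to 164.6). The mean was 312.3 ± 249.9 CPM (SD, n = 2), and the gene ranked 271st among all genes in replicate 2 and 1531st in replicate 1. H6pd had 91 reads in replicate 2 and 94 in replicate 1, or 75.2 CPM (60.5 to 92.3) and 124.9 CPM (101.0 to 152.9), with a mean of 100.05 ± 35.2 CPM (SD, n = 2). In replicate 2 Hsd11b1 stood clear of H6pd, while in replicate 1 their intervals overlapped. Hsd11b2 had 2 reads in replicate 2 and 1 in replicate 1, or 1.65 CPM (0.20 to 5.97) and 1.33 CPM (0.0336 to 7.40). Both values lie under the limit of 3 reads that a count of 0 allows, so the levels are uncertain. Hsd11b2 was still detected, as all 3 reads had the intron chain of the annotated Hsd11b2-201 over its 4 introns. Of a kidney list of 9 genes, Aqp2 alone was detected, with 2 reads in replicate 2 and 0 in replicate 1.

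**Figure D1:**
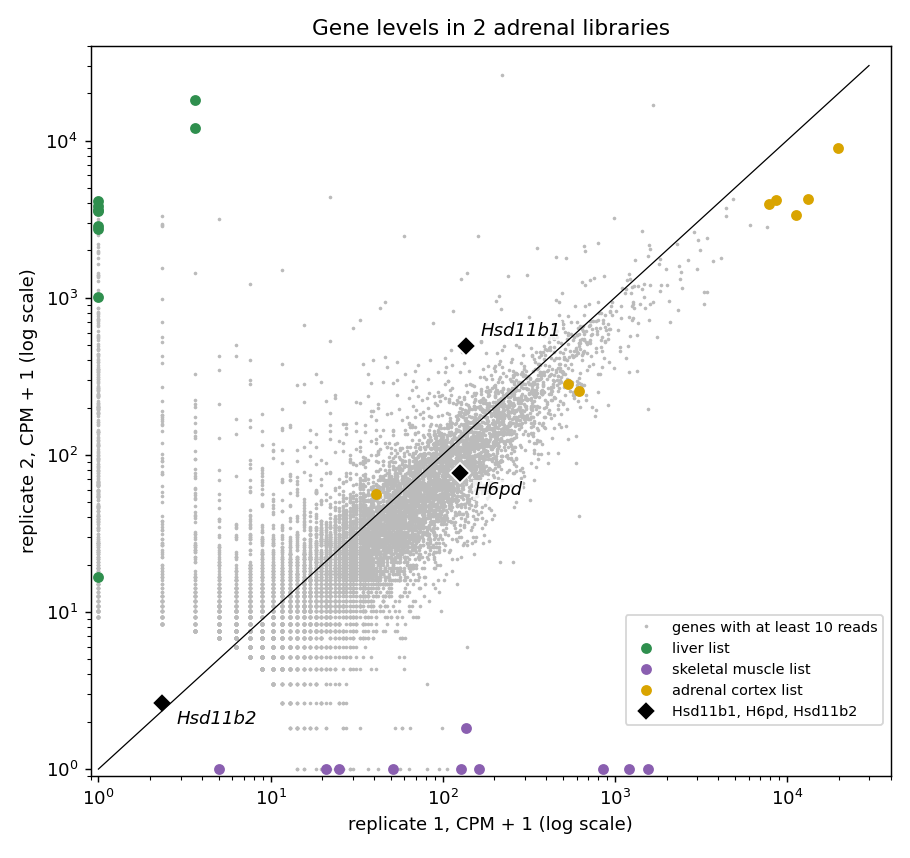
Each grey point is a gene with at least 10 reads over both libraries, plotted as CPM + 1 in replicate 2 (vertical, log scale) against replicate 1 (horizontal, log scale), with the line of equal levels. Hsd11b1 (489.0 and 135.6 CPM) lies above the line on the side of the liver list, H6pd (75.2 and 124.9 CPM) lies below it, and Hsd11b2 is at the foot of both axes.

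Hsd11b1 was 3.59-fold higher in replicate 2, a log2 ratio of replicate 2 to replicate 1 of 1.85 ± 0.15 (counting SE; adjusted p = 5.74e-41, two-sided Fisher's exact test, Benjamini-Hochberg over 11382 genes with at least 10 reads). By the same exact test 1307 genes were higher in replicate 2, 11.5% of those tested, and 2876 were lower, 25.3%. TMM scaling called 2015 higher and 1563 lower, and DESeq2 size factors called 2193 higher and 1387 lower. H6pd was among the lower genes, with a log2 ratio of −0.73 ± 0.21 (adjusted p = 0.00268, Fisher's exact test). The median ratio of all genes tested was −0.34, and scaling by TMM or DESeq2 size factors, which puts 0 at −0.35 or −0.40 on this scale, left H6pd at −0.38 (adjusted p = 0.177, exact test) or −0.33 (adjusted p = 0.255, exact test), not called. Hsd11b1 remained higher in replicate 2 under both, at 2.19 and 2.25. Hsd11b2 had too few reads to test. With an assumed coefficient of variation of 0.4 between libraries, neither ratio was called.

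The higher level of Hsd11b1 in replicate 2 lay mostly in reads assigned to 1 of its first exons. Each spliced read was assigned to the donor site of its first intron. The first exon of Hsd11b1-201 opened 491 reads in replicate 2 and 62 in replicate 1, or 405.6 CPM (370.5 to 443.1) and 82.4 CPM (63.2 to 105.6), a log2 ratio of 2.29 ± 0.19 and a 4.89-fold difference. The first exon of Hsd11b1-205 (chr1:193263948-193264075) lies behind an intron of 21659 bases and is named the distal exon here. It opened 47 reads in replicate 2 and 36 in replicate 1, or 38.8 CPM (28.5 to 51.6) and 47.8 CPM (33.5 to 66.2), a log2 ratio of −0.31 ± 0.32. These intervals overlap, and with TMM or DESeq2 scaling the ratio was 0.04 or 0.10. The distal exon thus opened 8.74% of reads from these 2 exons in replicate 2 (6.49 to 11.4) and 36.7% in replicate 1 (27.2 to 47.1).

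Among all reads that begin with an annotated first donor site, the site of Hsd11b1-201 took 491 of 565 in replicate 2 (86.9%, 83.8 to 89.6) and 62 of 98 in replicate 1 (63.3%, 52.9 to 72.8). The difference of 23.6 percentage points was called (adjusted p = 4.39e-06, two-sided Fisher's exact test over 1612 genes with at least 20 such reads in each library and 2 such sites of at least 5 reads). The leading site's share differed in 140 of those genes, 8.68%, and over all 1612 genes tested, called or not, the difference was smaller than that of Hsd11b1 in 94.0%. The same was seen for whole intron chains: Hsd11b1-201 took 484 of 573 spliced reads in replicate 2 (84.5%) and 60 of 101 in replicate 1 (59.4%), with adjusted p = 2.95e-06 by Fisher's exact test over 3650 genes, of which 383 (10.5%) were called. Liver transcripts moved with this difference: the liver list together had 62969 reads in replicate 2 and 4 in replicate 1. Their part in the Hsd11b1 level or in the choice of first exon was not tested. The donor site of the Hsd11b1-201 first exon is also an internal donor of Hsd11b1-205, so a Hsd11b1-205 molecule whose read stopped in its second exon cannot be told apart from Hsd11b1-201. The sites of Hsd11b1-203 (13 reads in replicate 2 and 0 in replicate 1) and Hsd11b1-204 (14 and 0) are internal donors of Hsd11b1-201 too. Those 14 reads held the chain of its last 2 introns and not that of Hsd11b1-204.

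**Figure D2:**
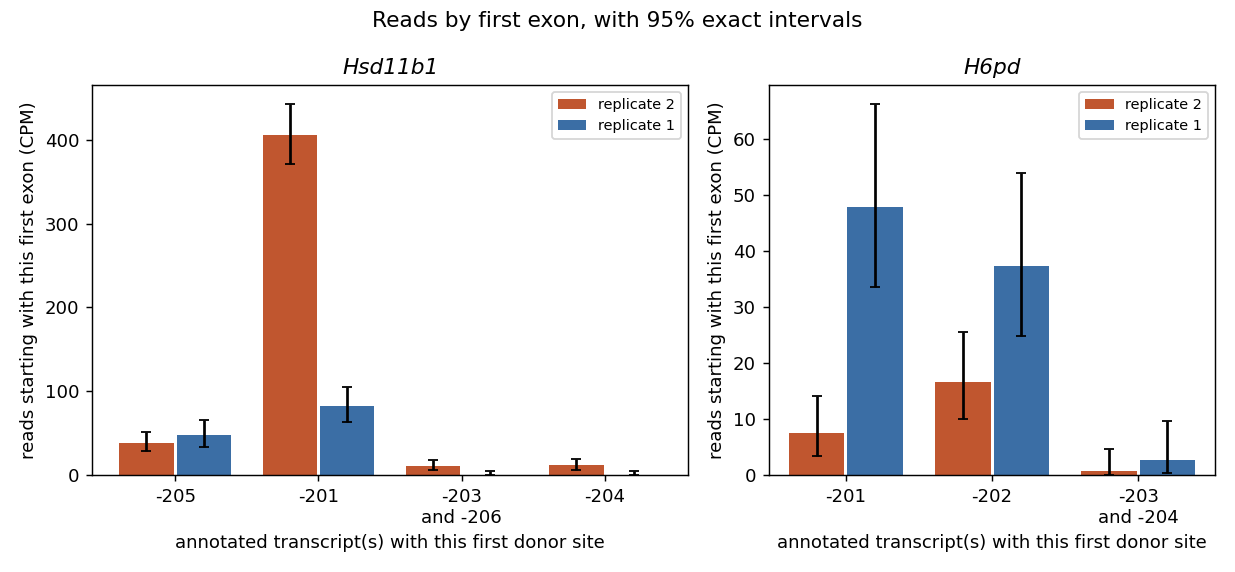
Bars give the level in CPM of spliced reads by annotated first exon, replicate 2 left of replicate 1, with 95% exact (Clopper-Pearson) intervals for counting error, for Hsd11b1 (left panel) and H6pd (right panel). The exon of Hsd11b1-201 had 405.6 and 82.4 CPM while the distal exon of Hsd11b1-205 had 38.8 and 47.8 CPM, and both main H6pd first exons had fewer CPM in replicate 2, with intervals that overlap for H6pd-202.

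Of the reads beginning with the distal Hsd11b1 exon, 40 in replicate 2 and 33 in replicate 1 joined the annotated second exon of 114 bases. A further 4 and 3 reads joined an acceptor 176 bases upstream of the annotated one, which makes a second exon of 290 bases. This splice form is not annotated, keeps the shared start codon and all 5 coding introns, and recurred in both libraries. An acceptor 22 bases upstream of the annotated one had 2 reads in replicate 2 and 0 in replicate 1. An unannotated first exon with its donor site 14518 bases upstream of the start codon had 1 read in each library, spliced to the annotated second exon. In all, 5 of 20 intron chains of Hsd11b1 were seen in both libraries.

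Hsd11b1-203 lacks the first 30 codons of the longer reading frame, and its first exon extends an internal exon. Its intron chain had 13 reads in replicate 2 and 0 in replicate 1. The level of this chain was 10.7 CPM (5.72 to 18.4) in replicate 2, and 0 reads allow up to 3.99 CPM in replicate 1. As a share of spliced Hsd11b1 reads it was 2.27% (1.21 to 3.85) in replicate 2 and 0% (0 to 3.59) in replicate 1. The intervals of these shares overlap. The 4 introns of Hsd11b1-203 are also the last 4 of Hsd11b1-201. A Hsd11b1-201 read that lacks the first intron cannot be told apart from Hsd11b1-203 here. The 13 reads may therefore include incomplete reads of Hsd11b1-201. A chain of the last 2 introns alone, of class ISM (incomplete splice match: a subset of an annotated chain), had 14 reads in replicate 2 and 0 in replicate 1. The chain of the last intron alone had 5 and 1, and that of the last 3 introns had 2 and 0. Both remaining chains of 2 or more reads had 2 reads in replicate 2 and 0 in replicate 1, and differ from Hsd11b1-201 at 1 internal donor site. All 5 introns of the 876-base reading frame were present and spliced as annotated in 530 of 573 spliced reads of replicate 2 (92.5%, 90.0 to 94.5) and in 98 of 101 of replicate 1 (97.0%, 91.6 to 99.4). The other reads include the chains above that begin too far downstream to hold all 5 introns. The share thus counts incomplete reads together with reads that used other splice sites. Single-exon reads at the locus numbered 19 of 592 and 1 of 102. Hsd11b1-202, Hsd11b1-204, Hsd11b1-206 and Hsd11b1-207 had no read with their own chain in either library.

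**Figure D3:**
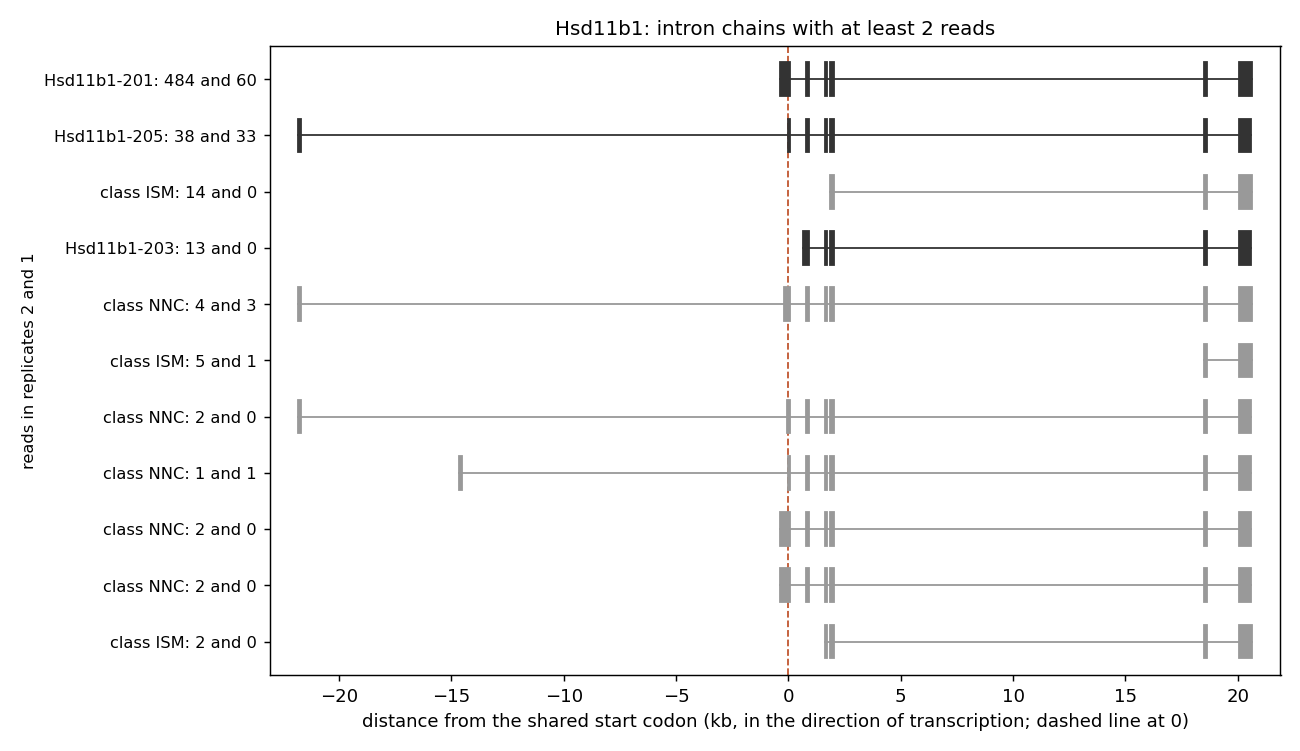
Rows are the Hsd11b1 intron chains with at least 2 reads over both libraries, with boxes for exons, lines for introns and reads in replicate 2 and replicate 1 in the row labels; the horizontal axis is distance from the shared start codon in kb along transcription, and box outlines make short exons look slightly wider. Dark rows are annotated transcripts and grey rows are not annotated (ISM holds a subset of an annotated chain, NNC has a new splice site, NIC has annotated sites in a new combination); chains with the distal exon begin farthest upstream of those shown, and all rows end in the same last exon.

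H6pd also had a pair of main first exons, and its reads were split between them more evenly. The first exon of H6pd-201 (chr4:150008751-150009023) opened 9 reads in replicate 2 and 36 in replicate 1, or 7.43 CPM (3.40 to 14.1) and 47.8 CPM (33.5 to 66.2). That of H6pd-202 (chr4:150003032-150003130) opened 20 and 28 reads, or 16.5 CPM (10.1 to 25.5) and 37.2 CPM (24.7 to 53.8). The intervals of the libraries did not overlap for H6pd-201 and overlapped for H6pd-202. These levels cover spliced reads only, and 56 of 91 H6pd reads in replicate 2 and 21 of 94 in replicate 1 were single-exon reads. The part of read completeness in the first exon levels was not tested. The site of H6pd-202 took 20 of 30 reads with an annotated first donor in replicate 2 (66.7%, 47.2 to 82.7) and 28 of 66 in replicate 1 (42.4%, 30.3 to 55.2). The difference of 24.2 points was not called (p = 0.0466, adjusted p = 0.250, two-sided Fisher's exact test over the 1612 genes). The whole chain of H6pd-202 had 17 of 35 spliced reads in replicate 2 (48.6%) and 27 of 73 in replicate 1 (37.0%), with adjusted p = 0.654 by Fisher's exact test, and that of H6pd-201 had 7 and 34.

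One more H6pd first exon, annotated in the short transcripts H6pd-203 and H6pd-204 (chr4:150001150-150001290), was seen spliced to the full set of coding exons. That chain is not annotated and had 1 read in each library. The chains of class ISM with at least 2 reads began in the second exon or later and had 4 and 1 reads (last 3 introns), 0 and 3 (last 2) and 1 and 3 (last intron). Chains ending in the 3 annotated introns shared by both reading frames held 30 of 35 spliced reads of replicate 2 (85.7%, 69.7 to 95.2) and 64 of 73 of replicate 1 (87.7%, 77.9 to 94.2). The other reads include incomplete ones that lack 1 or more of these introns. They also include single reads with all 3 introns and a further intron within the last exon. H6pd had 15 chains, of which 5 were seen in both libraries.

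**Figure D4:**
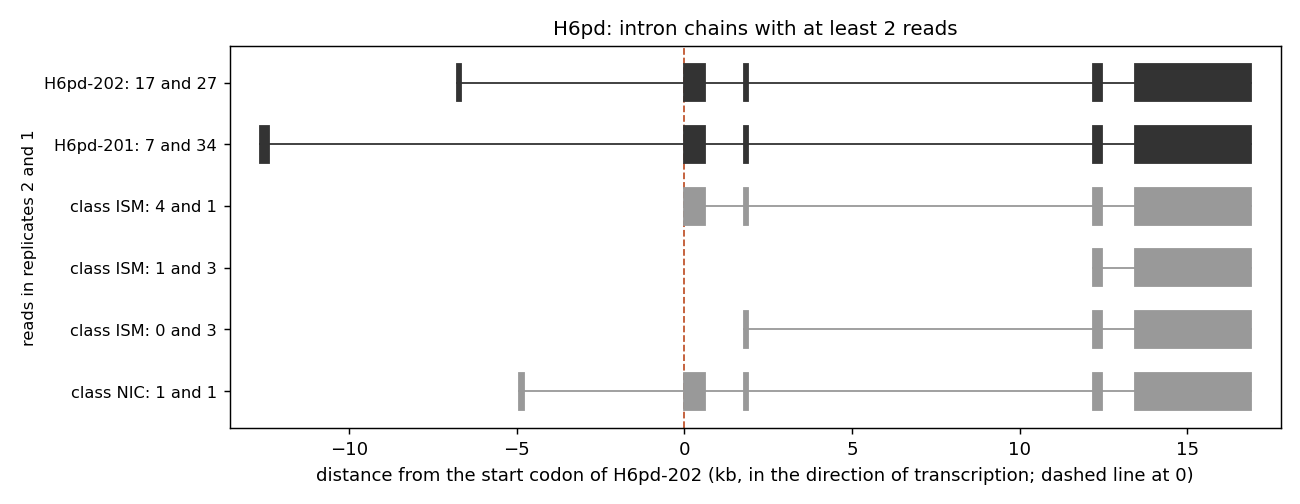
Rows are the H6pd intron chains with at least 2 reads over both libraries, drawn as for Hsd11b1, with reads in replicate 2 and replicate 1 in the row labels; the horizontal axis is distance from the start codon of H6pd-202 in kb along transcription. The 2 annotated chains differ only in their first exon, and the long box at the right is the last exon of 3447 bases.

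Most H6pd reads of replicate 2 had no intron. Single-exon reads numbered 56 of 91 in replicate 2 (61.5%, 50.8 to 71.6) and 21 of 94 in replicate 1 (22.3%, 14.4 to 32.1). In replicate 2, 55 of them formed a model over the whole last exon of 3447 bases, class ISM, and in replicate 1 all 21 formed a model of class genomic within it. The 2 classes therefore name reads of the same exon, so leaving out a class removes different reads from each library. A read within the last exon crosses no intron position, so whether its molecule was spliced cannot be told. Multi-exon protein-coding genes with a transcript of 4000 bases or more served as background. Single-exon reads made up 13.1% of their reads in replicate 2 and 8.36% in replicate 1. The H6pd share exceeded that of 95.3% and 88.5% of such genes with at least 20 reads. With spliced models alone, an alternative chosen after seeing the data, the H6pd log2 ratio was −1.70 ± 0.29 (adjusted p = 2.17e-08, exact test), a larger difference than over all its reads. With known transcripts alone it was −1.99, and without genomic models −0.37 (adjusted p = 0.202, exact test), not called.

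The genes that make corticosterone and aldosterone were all lower in replicate 2. All 10 of the corticosteroid synthesis list were called lower, beside 25.3% of all genes tested. Their median log2 ratio was −1.02, beside −0.34 for all genes tested. Cyp11a1, which cuts the side chain of cholesterol, stood at 8986 CPM (replicate 2) and 19806 CPM (replicate 1), and Cyp21a1, the 21-hydroxylase, had 4217 and 13204 CPM. Star, which carries cholesterol into mitochondria, had 4198 and 8671 CPM. Cyp11b1, whose 11β-hydroxylase makes the corticosterone that Hsd11b2 inactivates and Hsd11b1 restores, had 3364 and 11342 CPM, a log2 ratio of −1.75 ± 0.03. Under TMM or DESeq2 scaling 6 of the 10 were called lower and 0 higher. Beside these genes the liver list was higher and the skeletal muscle list lower in replicate 2, and their part was not tested. Cyp21a1, like Cyp3a11, Akr1c6 and Gstp1 named later, has closely related copies that could share its reads, so these levels are uncertain. Such sharing was not tested.

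Of 10 genes that reduce or clear steroids, 4 were called higher in replicate 2, 2 lower and 4 neither. Over all genes tested, 11.5% were called higher and 25.3% lower. Cyp3a11, a liver steroid hydroxylase, had 3151 reads in replicate 2 and 0 in replicate 1, and Akr1c6, a liver hydroxysteroid dehydrogenase, had 393 and 0. Akr1c18, the 20α-hydroxysteroid dehydrogenase that inactivates progesterone, stood at 195.8 CPM (replicate 2) and 1558 CPM (replicate 1) and was called lower. Srd5a2, a 5α-reductase, had 456.8 and 660.5 CPM and was called lower, but not under TMM or DESeq2 scaling. The median log2 ratio of the list was 0.09.

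H6pd belongs to a route parallel to the cytosolic pentose phosphate pathway. In a list of 13 genes of hexose phosphate handling and NADPH supply, 11 could be tested, 5 were called higher in replicate 2, 4 lower and 2 neither, with a median log2 ratio of −0.02. The shares over all genes tested were 11.5% higher and 25.3% lower. Tkt, the transketolase, stood at 1392 CPM (replicate 2) and 307.0 CPM (replicate 1), a log2 ratio of 2.18 ± 0.10. Me1, the cytosolic malic enzyme, had 717.0 and 1579 CPM, a log2 ratio of −1.14 ± 0.06. Taldo1, the transaldolase, had 688.0 and 850.6 CPM and was called lower, but its ratio was above 0 and not called under TMM or DESeq2 scaling. Idh1, the cytosolic isocitrate dehydrogenase, had 712.0 and 721.7 CPM and was not called, while TMM or DESeq2 scaling called it higher. G6pd2 had no read, and under TMM or DESeq2 scaling 6 of the list were called higher and 2 lower. Of all 11382 genes tested, TMM scaling called 2015 higher and 1563 lower, and DESeq2 scaling 2193 and 1387.

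The receptors that the enzymes guard or feed had low counts. Nr3c1, the glucocorticoid receptor, had 35 reads in replicate 2 and 10 in replicate 1, or 28.9 and 13.3 CPM, a log2 ratio of 1.07 ± 0.51 that was not called (adjusted p = 0.0769, Fisher's exact test). TMM or DESeq2 scaling called it higher in replicate 2 (adjusted p = 0.0153 and 0.0101, exact test). Nr3c2, the mineralocorticoid receptor, had 4 reads in replicate 2 and 2 in replicate 1, too few to test. Of the 9 genes of receptors and their carriers, 8 were tested, 2 were called higher in replicate 2, 4 lower and 2 neither, with a median log2 ratio of −0.14. All genes tested had 11.5% called higher and 25.3% lower. Hsp90ab1, a chaperone of both receptors, had 2342 and 3028 CPM, Fkbp4, an immunophilin of the receptor complex, had 534.4 and 660.5 CPM, and Hsp90aa1 had 212.3 and 502.4 CPM. Stip1, a co-chaperone, had 101.6 and 409.3 CPM. These named chaperone genes were called lower in replicate 2, but Hsp90ab1 and Fkbp4 not under TMM or DESeq2 scaling. The log2 ratios of Hsp90ab1 and Fkbp4 there lay between −0.02 and 0.10. Under those scalings 4 of the list were called higher and 2 lower. Fkbp5 and Ptges3 of the same list, named after their values were seen, went the other way. Fkbp5 had 111 reads in replicate 2 and 5 in replicate 1 and was called higher by gene reads, TMM and DESeq2 scaling. Ptges3 was called higher under TMM or DESeq2 scaling only.

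Of 12 genes known to respond to glucocorticoid, 4 were called higher in replicate 2, 3 lower and 5 neither, with a median log2 ratio of 0.26, where all genes tested had 11.5% called higher and 25.3% lower. TMM or DESeq2 scaling called 5 of them higher and 2 lower. Fkbp5 is counted both here and among the receptors and carriers, and Sgk1 both here and among the mineralocorticoid targets below. Errfi1, an inhibitor of EGF receptor signalling, stood at 360.1 CPM (replicate 2) and 103.7 CPM (replicate 1) and was called higher. Sgk1, a kinase induced by corticosteroids, had 67.7 and 148.9 CPM and was called lower. Klf9, a transcription factor, had 85.1 and 126.3 CPM and was called lower, but not under TMM or DESeq2 scaling. Tsc22d3, the glucocorticoid-induced leucine zipper, had 149.5 and 183.4 CPM and was not called under any of these scalings. Of 9 mineralocorticoid targets and their receptor, the sodium channel genes Scnn1a, Scnn1b and Scnn1g, with Kcnj1 and Fxyd4, had no read in either library. Nedd4l, a ubiquitin ligase that acts on that channel, had 12.4 CPM in replicate 2 and 19.9 CPM in replicate 1 and was not called.

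Other cell types that the dissected tissue could hold were represented in both libraries. Among all 11382 genes tested, 11.5% were called higher in replicate 2 and 25.3% lower. TMM scaling called 2015 of them higher and 1563 lower, and DESeq2 scaling 2193 and 1387. A list of 8 adipocyte genes summed to 2618 CPM (replicate 2) and 3739 CPM (replicate 1), with 3 called lower and 0 higher, and 2 lower under TMM or DESeq2 scaling. Cidea, a lipid droplet protein whose lower call those scalings did not make, had 643.4 and 776.1 CPM. Fabp4, a fatty acid carrier, had 356.8 and 990.1 CPM. Of 6 stromal genes 3 were called lower and 0 higher, but 0 lower under TMM or DESeq2 scaling, with Col3a1 at 668.2 and 720.3 CPM and Dcn at 155.3 and 244.5 CPM. None of 6 macrophage genes was called, with Cd74 at 117.3 and 97.0 CPM and Lyz2 at 88.4 and 107.7 CPM. Of 4 endothelial genes 2 were called lower, Plvap at 199.9 and 324.3 CPM and Kdr at 24.8 and 51.8 CPM, while TMM scaling left 1 of these calls, Plvap, and DESeq2 scaling left 0. Their part in the Hsd11b1 level was not tested, and under TMM or DESeq2 scaling Col3a1, Cd74 and 2 or 3 of the adipocyte genes were called higher. Of 8 medulla genes 7 were called lower and 0 higher, against 3 lower, 1 higher and 4 neither under those scalings. Chgb, at 3316 and 4424 CPM, was lower by the first count and not called by the scalings, and Chga, at 2602 and 2872 CPM, was lower by the first count and higher by the scalings. For the liver list these were Alb, with 21951 reads in replicate 2 and 2 in replicate 1, and Serpina3k, with 14654 and 2, and for the muscle list Atp2a1, with 0 and 1168 reads, and Acta1, with 0 and 910.

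The genes nearest to Hsd11b1 in level, by the distance of log2(CPM + 1) over the 2 libraries, were Asl, an enzyme of the urea cycle, at 483.2 CPM in replicate 2 and 132.9 CPM in replicate 1, Insig2, an inhibitor of sterol synthesis, at 450.2 and 128.9 CPM, and Gstp1, a glutathione transferase, at 461.7 and 110.3 CPM. Those nearest to H6pd were Scamp1 (74.3 and 124.9 CPM), Eif3j1 and Mfap1b (76.0 and 123.6 CPM each). Eif3j1 and Mfap1b may share reads with near-identical copies, so their levels are uncertain. With only 2 libraries such likeness describes level alone. Of the genes that overlap Hsd11b1 in the annotation, 4930570N18Rik on the opposite strand and Gm38118 had no read, and Lamb3, on the opposite strand, had 2 reads in replicate 2 and 1 in replicate 1.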

How the data were processed

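Long-read RNA sequencing of mouse adrenal gland was deposited as unnormalised read counts per transcript model, 1 table and 1 annotation per library. The authors used mm10 and GENCODE M21, per the file headers. Aligner, tool versions and strand handling: not given in the sources used here. Counts were summed per gene, and CPM took reads in annotated mouse genes as its total, without spike-ins (1.34% of reads in replicate 2, 1.41% in replicate 1) and loci outside genes (4.83% and 3.83%). Intervals (95% Clopper-Pearson) and limits (3 reads) cover counting error only. With 1 group there is no contrast for a replicated test, so libraries were compared by two-sided Fisher's exact tests with Benjamini-Hochberg adjustment over all eligible genes called at 0.05. A prior of 0.5 reads went into log2 ratios. Intron chain and strand served to match models across libraries. The deposited model ends are those of annotated transcripts in many models, so where a read began inside its first exon was not used. Scripts used Python 3.11.15, scipy 1.17.1, R 4.3.3, edgeR 4.0.16 and DESeq2 1.42.0, and were tested on simulated data. Genes named are the 3 genes, Nr3c1, Nr3c2 and Cyp11b1, the 4 most abundant of each pathway list and 2 of each marker list, the 3 nearest in level, overlapping genes, and chains with at least 2 reads. Some genes that this rule takes are not reported here. The genes and lists were chosen with earlier results of these data known. Sequences come from GENCODE M21 transcripts and RefSeq.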

Additional observations from a re-analysis of the deposited data

How the results depend on the processing

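The 592 and 102 Hsd11b1 reads in replicates 2 and 1 set the precision. Its log2 ratio stayed called, between 1.83 and 2.25, under every alternative but an edgeR exact test with an assumed coefficient of variation of 0.4 (1.85, adjusted p = 0.394). The H6pd ratio (−0.73) was not called with TMM (−0.38), DESeq2 size factors (−0.33), without genomic models (−0.37), or with an assumed coefficient of variation of 0.2 (−0.73, adjusted p = 0.358) or 0.4 (−0.73, adjusted p = 1). Genes called numbered 1523 and 474 under those coefficients, against 4183, where the test and its assumed spread changed together, so their parts cannot be told apart. The share of called genes that were higher in replicate 2 was 31.2%, against 56.3% with TMM, 61.3% with size factors, and 51.2% and 90.7% under the coefficients of 0.2 and 0.4. The Hsd11b2 level was 1.96 CPM with known models alone, as fewer reads are then in the denominator, and the H6pd-202 chain share averaged 57.5% against 42.8%. The ratios of Hsd11b1 and H6pd and their differences in share kept their direction under each alternative, while the larger group of called genes turned from lower to higher in replicate 2 under both scalings and both coefficients. Leaving out 1 replicate gave 135.6 to 489.0 CPM for Hsd11b1, 1.33 to 1.65 for Hsd11b2 and 75.2 to 124.9 for H6pd, a leading chain share of 59.4% to 84.5% for Hsd11b1 and 37.0% to 48.6% for H6pd, and a leading first exon share of 63.3% to 86.9% and 42.4% to 66.7%. The first exon difference of Hsd11b1 stayed called under each alternative, 28.0 points among reads that reach the exon of the start codon, a setting chosen after seeing the data. No paired analysis was possible because both libraries belong to 1 group.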

Other observations

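G0s2, an inhibitor of fat breakdown whose gene lies next to Hsd11b1 on the same strand and does not overlap it, was named after its values were seen. It had 141 reads in replicate 2 and 39 in replicate 1, or 116.5 and 51.8 CPM, a log2 ratio of 1.15 ± 0.26 (adjusted p = 1.68e-05, Fisher's exact test). Atp6v0d1, which lies next to Hsd11b2 on the opposite strand, had 82 and 68 reads.

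Single reads of H6pd held further forms, also named after they were seen. In replicate 2, 1 read ran from the first exon of H6pd-201 through the next 2 exons and then joined exons 2 and 3 of Spsb1, the annotated gene downstream on the same strand. An exon inside the first intron, over the last exon of H6pd-203, was used by 1 read of replicate 2 that began with the first exon of H6pd-202 and by 1 read of replicate 1 that began with that of H6pd-203. The Hsd11b1 locus had 1 read in replicate 1 that skipped the exon before the last. No model outside annotated genes lay over Hsd11b1 or Hsd11b2 in either library, and 1 read on the opposite strand lay over H6pd in replicate 2.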
